A study of Mus musculus with 6 samples.

Results

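Cholesterol and fatty acid synthesis genes were followed in mouse embryonic eye tissue with and without *Rdh10*. The set was chosen by name, though with earlier results of these data known, and takes every gene of the deposited expression table whose symbol is on a list of 31 genes, out of 26437 genes in all. It holds 18 enzymes of the mevalonate and sterol pathway, 5 genes of its control and transport (the SREBP regulators *Insig1*, *Srebf1*, *Srebf2* and *Scap*, and the sterol carrier *Stard4*) and 8 genes of fatty acid synthesis. All 31 were found, and all passed the filter on low values, a mean above 0.5 over the 6 libraries.

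The study compared wild-type embryos with *Rdh10*−/− embryos (*Rdh10* KO) from matings of heterozygotes, all at E10 and of mixed, outbred Black Swiss and C57BL/6 stock. *Rdh10* encodes a retinol dehydrogenase needed to make retinoic acid. RNA-seq was done on 3 libraries per genotype, each from the front of the head of 3 pooled embryos, which the methods call biological replicates. This tissue held both optic vesicles with facial tissue and some forebrain, and the labels call it embryonic craniofacial tissue. The deposited values are normalized counts (whole reads scaled by a size factor of the library) and rest on 19089872, 17626842 and 20808237 reads on genes in wild-type replicates 1 to 3 and on 27101025, 18511484 and 16392777 in *Rdh10* KO replicates 1 to 3. As a check of the labels, *Rdh10* itself had 399, 342 and 381 normalized counts in wild-type replicates 1 to 3 and 183, 142 and 181 in *Rdh10* KO. Its log2 fold change was −1.16 (95% confidence interval −1.44 to −0.87, adjusted p = 7.35e-05, limma), with every *Rdh10* KO library below every wild-type library.

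Cells make cholesterol from acetyl-CoA through mevalonate, isoprenoid diphosphates, squalene and lanosterol, and they make fatty acids from the same acetyl-CoA. Both routes are under the control of SREBPs, membrane-bound transcription factors that SCAP escorts to the Golgi for cleavage when sterols are low and that INSIG proteins hold back when sterols are plentiful. Embryonic head tissue depends on the sterol route, in part because Hedgehog signaling needs cholesterol, and inherited defects of several of its enzymes cause malformations of the brain and face.

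Of the 31 genes, 5 were lower in *Rdh10* KO at an adjusted p under 0.05 (limma, Benjamini–Hochberg over 22921 genes) and 0 were higher. All 5 lie in the mevalonate and sterol pathway: *Acat2*, *Mvk*, *Fdft1*, *Sqle* and *Msmo1*. The 5 genes are 16.1% of the 31, against 9.12% of all genes tested that were decreased and 10.3% that were increased. Among the 8878 genes at least as abundant as the lowest of the 31, 19.5% were decreased and 18.5% increased. The share of decreased genes is thus near the background of similarly abundant genes, and it is no result about the set as a whole. At an unadjusted p under 0.05 (limma), 7 of the 31 genes were lower and 3 higher, and edgeR and DESeq2 each called 1 gene higher, *Scd1*. None passed the cut-off of 0.85 on the log2 scale that the study used, which together with the adjusted p-value took 0.886% of all genes as decreased and 2.41% as increased. Over all genes tested, every *Rdh10* KO library was below every wild-type library for 17.0%, and every one was above for 17.6%. Among the 8878 similarly abundant genes this held for 2674 and 2305 genes. For 6 of the 31 genes every *Rdh10* KO library was below every wild-type library, and for 1 gene every one was above. With 3 libraries against 3, an exact two-sided permutation test on a single gene cannot go below p = 0.1, which was reached for these 7 genes. A lower value in such tissue may mean less RNA per cell or fewer of the cells that carry it, and these cannot be told apart.

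The calls depended on how the spread was estimated and on single libraries. Limma without its intensity trend called 0 of the 31 genes (2 lower and 0 higher at an unadjusted p under 0.05). With 1 library left out, *Mvk* alone passed without wild-type replicate 1 and without wild-type replicate 2. Both *Acat2* and *Mvk* passed without wild-type replicate 3, without *Rdh10* KO replicate 1 and without *Rdh10* KO replicate 3. Without *Rdh10* KO replicate 2 there were 6, namely *Acat2*, *Mvk*, *Fdft1*, *Sqle*, *Fdps* and *Cyp51*. *Msmo1* was thus lost with any library left out. A block for the replicate number, which is not known to pair samples, left *Acat2* and *Mvk*.

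The first step of the pathway, the joining of 2 acetyl-CoA molecules by the cytosolic thiolase *Acat2*, had the lowest p-value of the 31 genes. *Acat2* (ENSMUSG00000023832.13, GRCm38 chromosome 17, 12942890 to 12960747) had 3011, 3005 and 2682 normalized counts in wild-type replicates 1 to 3 and 2137, 2163 and 1813 in *Rdh10* KO replicates 1 to 3. All *Rdh10* KO libraries lay below all wild-type libraries, and *Rdh10* KO replicate 3 was the lowest. The mean fell from 2899 ± 188 to 2038 ± 195 (SD, n = 3 each), 70.3% of wild-type, with a log2 fold change of −0.51 (95% confidence interval −0.69 to −0.33, adjusted p = 0.000799, limma). The near copy beside it, *Acat3*, which was chosen after its values were seen, had a mean of 5.53 in wild-type and 9.03 in *Rdh10* KO, so that its reads are few beside those of *Acat2*. *Acat1*, the mitochondrial counterpart that acts in ketone body and amino acid metabolism and was likewise added after its values were seen, had 856 ± 32.9 and 983 ± 98.1 (SD, n = 3 each), a log2 difference of 0.19 (adjusted p = 0.155, limma).

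*Hmgcs1*, which makes HMG-CoA from the product of *Acat2*, was the most abundant enzyme of the sterol pathway but did not pass the test. It had 8181, 8189 and 7891 normalized counts in wild-type and 7525, 8354 and 5939 in *Rdh10* KO replicates 1 to 3. *Rdh10* KO replicate 2 was the highest of the 6 libraries and replicate 3 the lowest, so the groups overlap. The log2 fold change was −0.17 (95% confidence interval −0.38 to 0.04, adjusted p = 0.280, limma), with −0.27 without *Rdh10* KO replicate 2 and −0.0284 without replicate 3.

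Mevalonate kinase, encoded by *Mvk*, showed the lowest log2 fold change of the 31 genes. *Mvk* (ENSMUSG00000041939.14, chromosome 5, 114444269 to 114460591) had 931, 914 and 797 normalized counts in wild-type and 644, 588 and 592 in *Rdh10* KO. The 3 *Rdh10* KO libraries were close together and all below the wild-type libraries, among which replicate 3 was the lowest. The mean fell from 881 ± 72.6 to 608 ± 31.2 (SD, n = 3 each), 69.0% of wild-type, with a log2 fold change of −0.53 (95% confidence interval −0.73 to −0.34, adjusted p = 0.00114, limma). *Mmab*, a cobalamin gene that starts next to *Mvk* on the other strand, was chosen after its values were seen and differed by −0.08 on the log2 scale (adjusted p = 0.626, limma).

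None of the steps between mevalonate kinase and farnesyl diphosphate passed the test, though *Idi1* and *Fdps* differed by about as much as *Fdft1*, which did. *Pmvk* and *Mvd*, which complete isopentenyl diphosphate, had log2 fold changes of −0.09 and −0.13, with adjusted p-values of 0.581 and 0.402 (limma). *Idi1*, the isomerase, had −0.25 (adjusted p = 0.234, limma) and was lowest in *Rdh10* KO replicate 3, at 244 normalized counts against 333 to 378 in wild-type. Without that library *Idi1* differed by −0.09. *Fdps*, the synthase of farnesyl diphosphate, had 524, 568 and 486 normalized counts in wild-type and 391.7, 506 and 405 in *Rdh10* KO. Its *Rdh10* KO replicate 2 lay within the wild-type range and the other *Rdh10* KO libraries below it. The log2 fold change was −0.28 (95% confidence interval −0.53 to −0.04), which did not pass after adjustment (adjusted p = 0.106, limma).

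At the branch to sterols, *Fdft1* and *Sqle* were both lower in *Rdh10* KO. *Fdft1* (ENSMUSG00000021273.9, chromosome 14, 63145150 to 63179578), which encodes squalene synthase, had 1711, 1623 and 1507 normalized counts in wild-type and 1308, 1471 and 1199 in *Rdh10* KO. The gap between the groups was narrow, since *Rdh10* KO replicate 2 came close to wild-type replicate 3. The mean fell to 82.2% of wild-type, with a log2 fold change of −0.29 (95% confidence interval −0.47 to −0.10, adjusted p = 0.0338, limma). *Fdft1* shares 774 exon bases with *Ctsb* on the other strand, and *Ctsb*, chosen after its values were seen, differed by −0.19 on the log2 scale (adjusted p = 0.0514, limma). The libraries were directional, but how strand was used in counting is not stated, so reads from *Ctsb* in this value cannot be told apart.

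*Sqle* (ENSMUSG00000022351.14, chromosome 15, 59315077 to 59331192) encodes squalene epoxidase, a rate-controlling enzyme of the sterol branch. It had 2383, 2355 and 2384 normalized counts in wild-type, a tight group, and 2004, 2145 and 1568 in *Rdh10* KO. Every *Rdh10* KO library was below every wild-type library, with replicate 3 well under the others. The log2 fold change was −0.33 (95% confidence interval −0.54 to −0.12, adjusted p = 0.0300, limma), and the mean was 80.3% of wild-type. Without *Rdh10* KO replicate 3 the difference was −0.20 on the log2 scale (adjusted p = 0.0655, limma), and with a pseudocount of 0.01 the adjusted p was 0.0503 (limma).

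**Figure D1:**
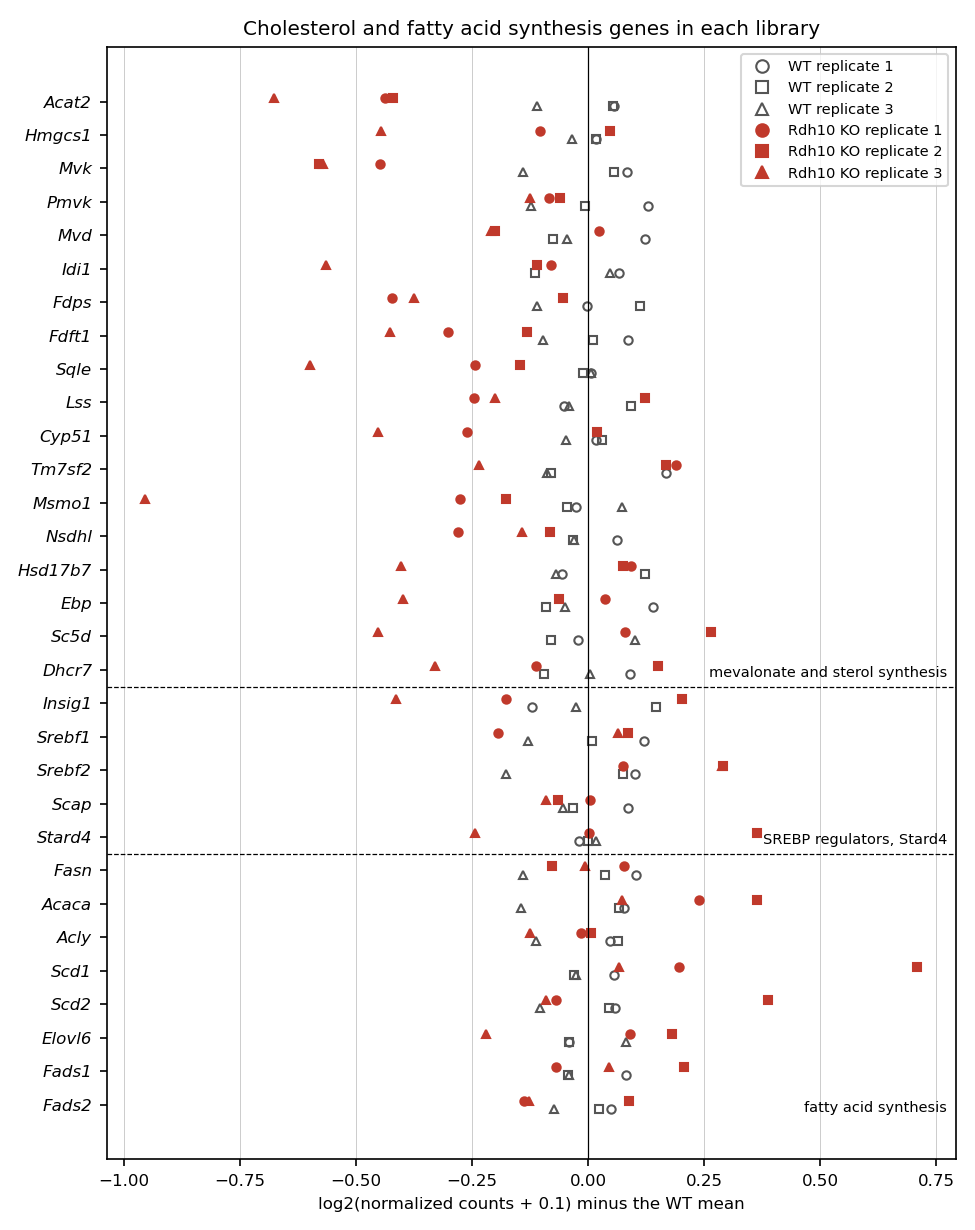
Level of each of the 31 genes in each library, as log2(normalized counts + 0.1) minus the mean of the 3 wild-type libraries, so that 0 on the horizontal axis is the wild-type mean. Grey open symbols are wild-type and red filled symbols *Rdh10* KO libraries, with 1 symbol shape per replicate number, and dashed lines part the sterol pathway, the regulators and fatty acid synthesis. In the upper block *Rdh10* KO replicate 3 (red triangles) is the lowest of the 6 libraries for 14 of 18 genes.

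After the closure of the sterol ring, *Msmo1* was the gene that passed among the enzymes that trim lanosterol. *Msmo1* (ENSMUSG00000031604.10, chromosome 8, 64718139 to 64733792), a methylsterol monooxygenase, had 1789, 1765 and 1916 normalized counts in wild-type and 1504, 1613 and 941 in *Rdh10* KO. The value in *Rdh10* KO replicate 3 was far below the rest, and the other *Rdh10* KO libraries were also under the wild-type range. The mean fell from 1824 ± 81.3 to 1353 ± 361 (SD, n = 3 each), 74.2% of wild-type, with a log2 fold change of −0.47 (95% confidence interval −0.79 to −0.15, adjusted p = 0.0404, limma). Without *Rdh10* KO replicate 3 it was −0.23 (adjusted p = 0.0744, limma). The call was also lost with DESeq2 (adjusted p = 0.169) and with a pseudocount of 0.01 (adjusted p = 0.0772, limma).

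*Nsdhl*, which acts with *Msmo1* in the removal of methyl groups, had 830, 778 and 779 normalized counts in wild-type and 654, 751 and 720 in *Rdh10* KO. The groups did not overlap, but the log2 fold change of −0.17 did not pass the test (adjusted p = 0.213, limma). Lanosterol demethylase, encoded by *Cyp51*, had 2911, 2937 and 2785 normalized counts in wild-type and 2403, 2917 and 2101 in *Rdh10* KO, with replicate 2 inside the wild-type range. Its log2 fold change was −0.23 (adjusted p = 0.123, limma), with −0.36 without *Rdh10* KO replicate 2 and −0.12 without replicate 3. The other enzymes of this stretch, *Lss* (lanosterol synthase), *Tm7sf2*, *Hsd17b7*, *Ebp*, *Sc5d* and *Dhcr7*, had log2 fold changes between −0.14 (*Ebp*) and 0.04 (*Tm7sf2*), with overlapping groups and adjusted p-values of at least 0.518 (*Lss*, limma).

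**Figure D2:**
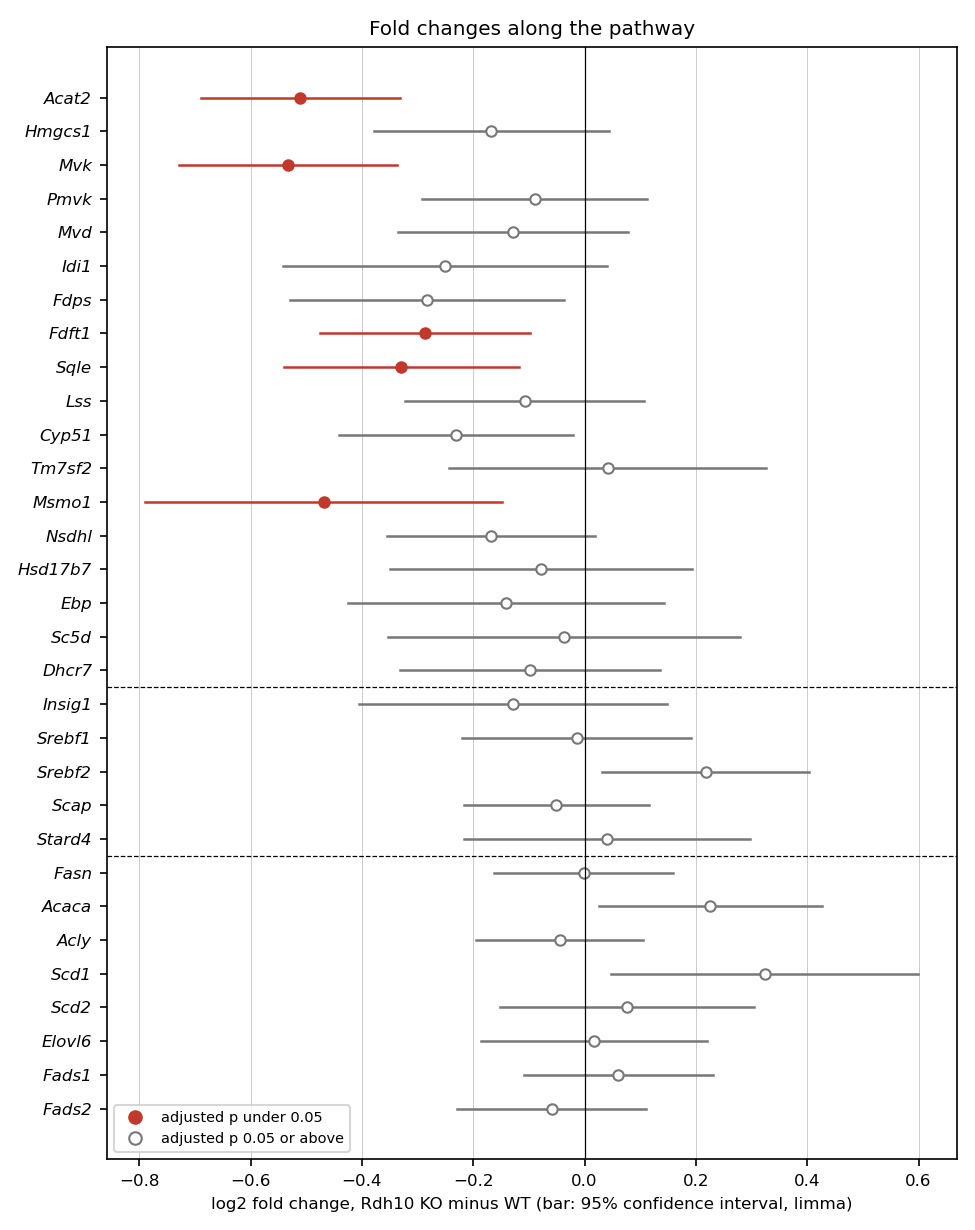
Log2 fold change of each gene (*Rdh10* KO minus wild-type) in pathway order, with its 95% confidence interval from limma as a bar. Red filled points passed at an adjusted p of 0.05 and grey open points did not. The 5 red points run from −0.53 (*Mvk*) to −0.29 (*Fdft1*), and all points of the fatty acid block are grey.

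By role, 5 of the 18 sterol pathway genes (27.8%) were decreased and 0 increased (limma, 0 increased also at an unadjusted p under 0.05 and with edgeR and DESeq2), against 9.12% of all genes and 19.5% of similarly abundant genes decreased. The list was chosen with results known, and nothing particular to it is read from this share. The log2 fold change was below 0 for 17 of the 18 genes, all but *Tm7sf2*. That gene turned negative with quantile normalization and with median scaling. With edgeR *Sc5d* was also above 0, which left 16 of the 18 below. Over all genes tested, 49.7% were below 0 in limma. The median of the 18 genes was −0.17, against 0.00 for all genes tested. Their summed level was 28129, 27698 and 26767 normalized counts in wild-type and 24051, 26388 and 19880 in *Rdh10* KO replicates 1 to 3, a mean of 85.1% of wild-type. The *Rdh10* KO libraries thus differed more among themselves than the wild-type libraries did.

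*Rdh10* KO replicate 3 was below every wild-type library for 18 of the 18 genes, replicate 1 for 11 and replicate 2 for 7. Replicate 2 was instead above every wild-type library for 5 of them. The median distance of the 18 genes from the wild-type mean was −0.18, −0.06 and −0.41 on the log2 scale in *Rdh10* KO replicates 1 to 3. Without replicate 3, the 18 genes had a median of −0.09, 14 of them were below 0, and *Acat2* and *Mvk* were the 2 that passed (limma). Replicate 3 also had the fewest reads on genes and the smallest share of reads on mitochondrial genes, 0.949% against 1.45% and 1.49% in *Rdh10* KO replicates 1 and 2 and 1.64% to 1.90% in wild-type. The part of these differences in the sterol gene values was not tested.

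The cell make-up of the pools also varied. Embryonic blood markers, of which *Hbb-y* was the most abundant, summed to 122216, 97592 and 131051 normalized counts in wild-type and to 49370, 115990 and 151360 in *Rdh10* KO replicates 1 to 3, and 0 of 6 passed the test in either direction (limma; 1 lower and 0 higher at an unadjusted p under 0.05, and 1 decreased with edgeR and with DESeq2). Forebrain markers, led by *Sox1*, summed to 3384, 3224 and 3151 in wild-type and to 2364, 3837 and 3433 in *Rdh10* KO, with 1 of 5 increased, about the 18.5% of similarly abundant genes (*Dlx2*; 0 without wild-type replicate 2, 2 without *Rdh10* KO replicate 1) and 0 decreased (limma; 1 at an unadjusted p under 0.05 and 1 with edgeR, 0 with DESeq2). Optic vesicle markers, led by *Pax6*, summed to 4521, 4481 and 4643 in wild-type and to 3024, 4661 and 4706 in *Rdh10* KO, where 2 of 6 rose (*Rax* and *Six3*) and 1 fell (*Lhx2*), against 10.3% and 9.12% of all genes or 18.5% and 19.5% of similarly abundant genes, calls that were all lost without any single library other than *Rdh10* KO replicate 1. The forebrain, optic and blood sums were each lowest in *Rdh10* KO replicate 1, and the part of cell make-up in the sterol gene values was not tested. None of these markers was at 0 in any library.

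Surface ectoderm markers, led by *Krt18*, had 2 of 5 increased, against 10.3% of all genes and 18.5% of similarly abundant genes (*Cdh1* and *Tfap2a*; *Tfap2a* alone without any single library other than *Rdh10* KO replicate 2) and summed to 5565, 5595 and 5108 in wild-type and 6144, 5367 and 6252 in *Rdh10* KO. Yolk sac and liver, which handle much lipid, were close to absent. Their 7 markers, led by *Apob*, summed to at most 78.8 normalized counts in any library, and *Afp*, *Apoa4* and *Ttr* were at 0 in at least 1 library. The 5 heart markers, led by *Myh7*, summed to at most 73.7, with *Nkx2-5* at 0 in at least 1 library.

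The sex of the pooled embryos differed as well. *Xist*, transcribed from the inactive X chromosome, had 7487, 8749 and 12378 normalized counts in wild-type and 12733, 18.1 and 6776 in *Rdh10* KO, and the Y-linked *Ddx3y* had 338, 145 and 113 in wild-type and 260, 1467 and 842 in *Rdh10* KO. *Rdh10* KO replicate 2 thus held next to no *Xist* and the most *Ddx3y*. *Ddx3y* and *Kdm5d* were called as increased although their groups overlap, calls lost without the trend, with a block for the replicate number and without any single library other than *Rdh10* KO replicate 1. *Nsdhl* and *Ebp* lie on the X chromosome, and the part of sex in the values of the 31 genes was not tested.

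**Figure D3:**
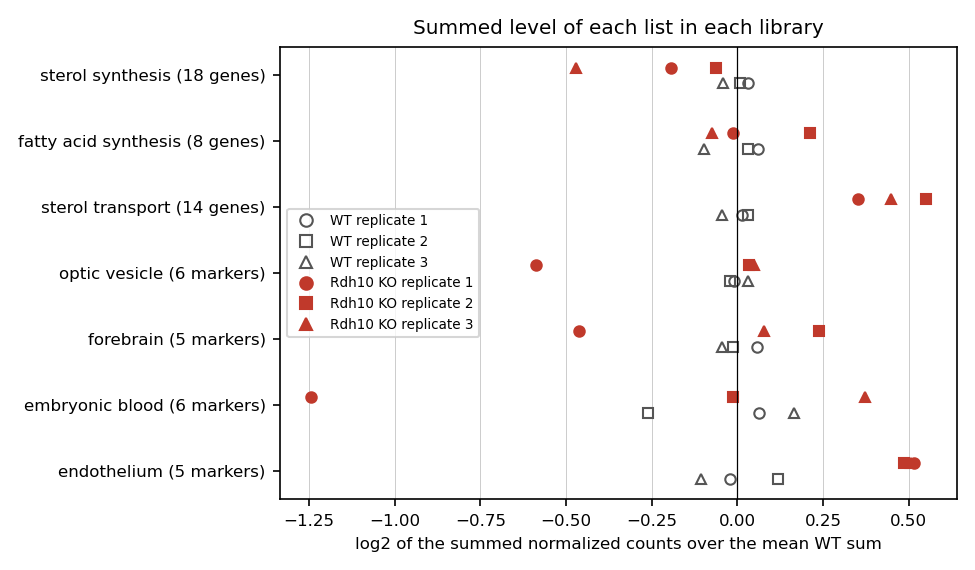
Summed normalized counts of 7 gene lists in each library, as the log2 ratio to the mean wild-type sum (0 on the horizontal axis). Grey open symbols are wild-type and red filled symbols *Rdh10* KO libraries, with 1 shape per replicate number. Sterol synthesis is lowest in *Rdh10* KO replicate 3 (19880 normalized counts) and embryonic blood in *Rdh10* KO replicate 1 (49370), while sterol transport and endothelium are higher in all 3 *Rdh10* KO libraries than in any wild-type library.

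Promoter sequences are shown for the pair of genes with the lowest log2 fold changes and for *Hmgcs1*, which holds an exact sterol regulatory element, as SREBPs bind such elements beside NF-Y and Sp1. No RefSeq promoter window was found for 7 of the 31 genes, *Fdps*, *Fdft1*, *Sqle*, *Stard4*, *Scd1*, *Scd2* and *Fads1*, so these were not searched. RefSeq promoter windows (GRCm38.p6, 250 bases before to 50 after the start) were found for the other 24 genes, in 30 windows. They were searched on both strands for TCACNCCAC (a sterol regulatory element), CCAAT (the NF-Y box), GGGCGG (the GC box bound by Sp1) and CACGTG (an E-box), none of which contains another. CCAAT was in 20 of the 30 windows (66.7%), against 37.4% of all 32851 windows, and GGGCGG in 23 (76.7%), against 35.7%. CACGTG was in 6 of the 30 windows, against 7.15%, and TCACNCCAC in 1 window, that of *Hmgcs1*, against 1.24%. The 13 windows of the sterol transport genes described further on had similar shares, 61.5% with CCAAT, 69.2% with GGGCGG and 1 window with TCACNCCAC, so these shares are not particular to the 31 genes. CACGTG was in 1 of the 13 (7.69%), near the share of all windows. The stretches below end at the RefSeq start or at the first base that GENCODE places in an exon, lie in no annotated exon, and carry in capitals every match to the 4 motifs:
*Mvk*, chr5:114444119-114444268, plus strand: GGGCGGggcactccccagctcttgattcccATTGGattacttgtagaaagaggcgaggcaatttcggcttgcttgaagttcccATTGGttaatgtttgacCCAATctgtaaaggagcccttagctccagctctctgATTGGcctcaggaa
*Acat2*, chr17:12960748-12960875, minus strand: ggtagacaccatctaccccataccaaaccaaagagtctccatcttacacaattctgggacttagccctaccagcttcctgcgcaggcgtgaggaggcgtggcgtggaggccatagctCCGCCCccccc
*Hmgcs1*, chr13:119690201-119690350, plus strand: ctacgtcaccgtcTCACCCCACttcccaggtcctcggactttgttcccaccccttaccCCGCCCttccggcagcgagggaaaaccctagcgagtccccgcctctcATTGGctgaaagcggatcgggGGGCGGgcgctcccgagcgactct

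The stretch of *Mvk* holds 4 NF-Y boxes, read as CCAAT or, on the other strand, ATTGG, and 1 GC box. That of *Acat2* holds 0 NF-Y boxes and 1 GC box (CCGCCC on the strand shown). *Hmgcs1* did not pass the test. Its sterol regulatory element TCACCCCAC lies 137 to 129 bases before the RefSeq start, followed by 2 GC boxes and 1 NF-Y box. GENCODE starts *Hmgcs1* further downstream, at base 119690379 of chromosome 13, so the distance depends on the annotation. A match is a description of letters and not a bound site, and variants of TCACNCCAC were not searched.

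Of the 5 genes that regulate the pathway or carry sterols, 0 passed the test in either direction (limma, edgeR and DESeq2; at an unadjusted p under 0.05, limma, 0 lower and 1 higher). *Srebf2* encodes SREBP2, which mainly drives sterol genes, and had 3682, 3614 and 3038 normalized counts in wild-type and 3615, 4197 and 4190 in *Rdh10* KO. *Rdh10* KO replicates 2 and 3 were above the wild-type range and replicate 1 inside it. The log2 fold change of *Srebf2* was 0.22 (95% confidence interval 0.03 to 0.40, adjusted p = 0.0990, limma), and without wild-type replicate 3 it was 0.13. The sign is opposite to that of most sterol enzymes, and whether the groups of genes differ was not tested.

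*Insig1*, which retains the SREBP and SCAP complex in the endoplasmic reticulum and is itself a target of SREBPs, had 945, 1137 and 1009 normalized counts in wild-type and 909, 1183 and 772 in *Rdh10* KO. As for *Hmgcs1*, *Rdh10* KO replicate 2 was the highest of the 6 libraries and replicate 3 the lowest, and the log2 fold change was −0.13 (adjusted p = 0.558, limma). *Stard4*, a soluble carrier that moves cholesterol between membranes, followed the same order, with 1357 in *Rdh10* KO replicate 2 and 891 in replicate 3 against 1042 to 1068 in wild-type. *Srebf1* and *Scap* had log2 fold changes of −0.01 and −0.05, with adjusted p-values of 0.949 and 0.712 (limma).

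Other SREBP processing and feedback genes, a list of 7, had 1 increased, against 10.3% of all genes, and 0 decreased (limma, 0 decreased also at an unadjusted p under 0.05 and with edgeR and DESeq2). *Mbtps2*, the membrane protease that makes the second cut of SREBPs, had 657, 760 and 759 normalized counts in wild-type and 938, 1124 and 957 in *Rdh10* KO. All *Rdh10* KO libraries were higher, and the log2 fold change was 0.47 (95% confidence interval 0.26 to 0.68, adjusted p = 0.00365, limma). *Mbtps2* shares 2867 exon bases on its own strand with *Yy2*, so reads of the 2 genes cannot be told apart there. The call of *Mbtps2* was lost without wild-type replicate 1 and without wild-type replicate 2, and without *Rdh10* KO replicate 3 the list had 3 increased. *Insig2*, the second INSIG gene, differed by 0.30 on the log2 scale (adjusted p = 0.0587, limma), and *Mbtps1*, the most abundant gene of the list and the protease of the first cut, one of 0.03. *Insig2* was chosen after its values were seen.

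Fatty acid synthesis had no gene past the test in limma, in either direction, among its 8 genes (at an unadjusted p under 0.05, 0 lower and 2 higher; with edgeR and with DESeq2, 0 decreased and 1 increased). *Fasn*, the synthase itself, had 7800, 7444 and 6592 normalized counts in wild-type and 7667, 6881 and 7226 in *Rdh10* KO, fully overlapping groups with means of 7279 ± 620 and 7258 ± 394 (SD, n = 3 each). The 95% confidence interval of its log2 fold change ran from −0.16 to 0.16, so that a change of the size seen in *Mvk* lies outside it. For *Acly*, which supplies cytosolic acetyl-CoA from citrate to both routes, the interval was −0.19 to 0.11 around −0.04. *Acaca*, the carboxylase that commits acetyl-CoA to fatty acids, had 1149, 1141 and 984 normalized counts in wild-type and 1285, 1401 and 1146 in *Rdh10* KO. Only *Rdh10* KO replicate 3 lay in the wild-type range, and the log2 fold change of 0.23 did not pass (adjusted p = 0.113, limma).

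*Scd1*, which desaturates stearate to oleate, was the gene of the 31 with the highest log2 fold change. It had 1085, 1022 and 1025 normalized counts in wild-type and 1195, 1706 and 1093 in *Rdh10* KO. The *Rdh10* KO libraries were all higher, by little in replicate 3 and by most in replicate 2. The log2 fold change was 0.32 (95% confidence interval 0.05 to 0.60, adjusted p = 0.0987, limma), and edgeR and DESeq2 on the recovered reads gave adjusted p-values of 0.0234 and 0.0322. Without *Rdh10* KO replicate 2 the difference was 0.13 (adjusted p = 0.295, limma), so that much of its size rests on that library. *Scd2*, the main desaturase of the embryo, had 16715, 16557 and 14933 in wild-type and 15302, 21002 and 15076 in *Rdh10* KO, again with replicate 2 on top, and a log2 difference of 0.08 (adjusted p = 0.680, limma). Their neighbours *Scd3* and *Scd4*, chosen after their values were seen, had means of at most 5.52 normalized counts in either group. *Elovl6*, *Fads1* and *Fads2*, which lengthen and desaturate fatty acids, had log2 fold changes of 0.02, 0.06 and −0.06 with overlapping groups.

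In the fatty acid arm, as in the sterol arm, the summed level was highest in *Rdh10* KO replicate 2 and lowest in replicate 3 among the *Rdh10* KO libraries. *Rdh10* KO replicate 2 was the highest of the 6 libraries for 6 of the 8 fatty acid genes, and replicate 3 was above every wild-type library for 1 of them and below every one for 3. The 8 genes summed to 42215, 41435 and 37902 normalized counts in wild-type and 40187, 46916 and 38518 in *Rdh10* KO, 103% of wild-type in the mean. The median difference was 0.04 on the log2 scale for the fatty acid genes and −0.17 for the sterol genes. Whether the 2 arms differ was not tested.

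Levels of different genes can be compared per length, as FPKM, here from whole reads and the length of all exons of a gene. *Scd2* had the highest level of the 31, with means and SD of 3 libraries of 150 ± 9.23 FPKM for wild-type and 161 ± 29.4 for *Rdh10* KO. *Hmgcs1* followed with 90.0 ± 1.88 and 81.2 ± 12.8, then *Acly* with 75.4 ± 4.997 and 73.4 ± 2.90. *Acat2* was the fourth in both groups, at 58.2 ± 3.77 FPKM in wild-type and 41.1 ± 3.59 in *Rdh10* KO. *Fads2* (34.3 ± 1.53), *Fasn* (34.0 ± 2.91) and *Cyp51* (33.3 ± 0.922) did not differ in wild-type beyond their spread. *Mvk*, at 16.8 ± 1.39 FPKM in wild-type, lay beside *Insig1* (17.0 ± 1.58) and *Elovl6* (16.9 ± 0.836), and was below both in *Rdh10* KO, at 11.7 ± 0.659 against 15.8 ± 3.27 and 17.2 ± 2.25. *Acaca* had the lowest level, 3.27 ± 0.277 and 3.84 ± 0.339. Exon bases shared with other genes add to these values, for example 1124 bases of *Fdps* with *Gm43738* and 532 bases of *Tm7sf2* with *Vps51*, both on the same strand.

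**Figure D4:**
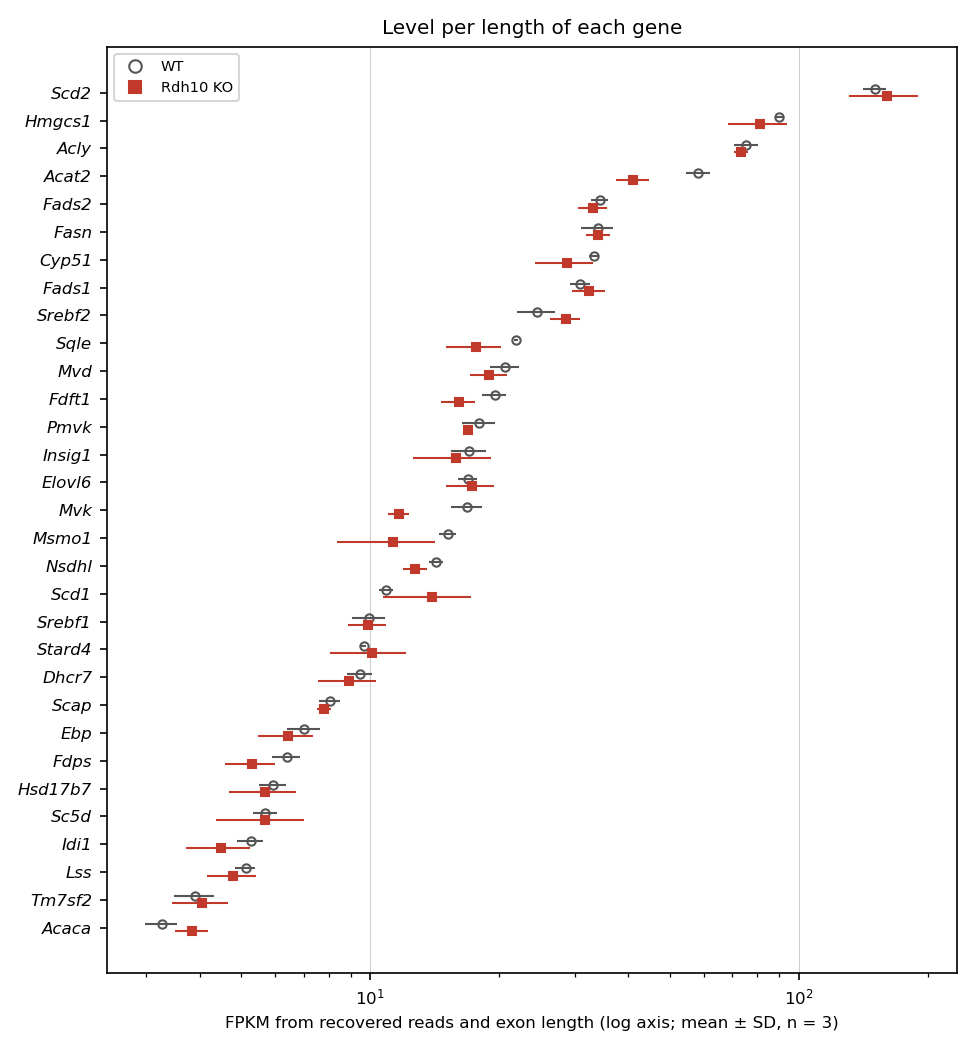
Level per length of the 31 genes on a log axis, in FPKM from the recovered reads and exon lengths, ordered by the wild-type mean. Points are group means of 3 libraries (grey circles wild-type, red squares *Rdh10* KO) and bars are SD. Levels span from 3.27 (*Acaca*) to 150 FPKM (*Scd2*) in wild-type, and the red square of *Mvk* lies well to the left of its grey circle.

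Genes that take up, move, store and export sterols had log2 fold changes below 0 for 5 of 14, against 49.7% of all genes, and whether they differ as a group from the sterol enzymes was not tested. Of the 14 genes, 7 were increased and 0 decreased (limma; 0 decreased also at an unadjusted p under 0.05 and with edgeR and DESeq2), 4 of them past the cut-off of 0.85, against 10.3% and 2.41% of all genes and 18.5% increased among similarly abundant genes. Their median was 0.24 on the log2 scale. *Vldlr*, a receptor for lipoproteins and reelin, had 207, 200 and 236 normalized counts in wild-type and 671, 1665 and 1018 in *Rdh10* KO. Even the lowest *Rdh10* KO library was far above the wild-type libraries, and the log2 fold change was 2.29 (95% confidence interval 1.80 to 2.77, adjusted p = 2.23e-05, limma).

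*Soat1*, which esterifies cholesterol for storage, had 1213, 1202 and 1320 normalized counts in wild-type and 2145, 3235 and 2034 in *Rdh10* KO. The groups lay far apart, and the log2 fold change was 0.96 (95% confidence interval 0.67 to 1.25, adjusted p = 0.000274, limma). *Scarb1*, a receptor for high-density lipoprotein, rose from 682 ± 62.1 to 1279 ± 215 (SD, n = 3 each), with a log2 difference of 0.90 (adjusted p = 0.000128, limma). *Npc1* and *Npc2* pass cholesterol out of lysosomes in turn, and their log2 fold changes were 0.88 and 0.22, with adjusted p-values of 0.000110 and 0.0352 (limma). The exporters *Abcg1* and *Abca1* had 0.58 and 0.41 (adjusted p = 0.00746 and 0.0182, limma). The liver X receptors *Nr1h2* and *Nr1h3*, sterol sensors that drive both exporters, had −0.19 and −0.30 and did not pass (adjusted p = 0.198 and 0.603, limma). *Nr1h2* and *Nr1h3* were named after their values were seen, and *Npc2* was the most abundant gene of the list.

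For these transport genes too the calls depended on single libraries. The 7 increased genes became 3 without wild-type replicate 1 and without wild-type replicate 2 (*Npc1*, *Scarb1* and *Vldlr*), 4 without wild-type replicate 3, 6 without *Rdh10* KO replicate 1, 5 without *Rdh10* KO replicate 2 and 6 without *Rdh10* KO replicate 3. Limma without its trend called 0 of them (7 higher at an unadjusted p under 0.05). Median scaling and a block for the replicate number each left 5, without *Npc2* and *Abca1*. With median scaling the log2 fold change of *Npc2* shrank to 0.14 (adjusted p = 0.209, limma).

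**Figure D5:**
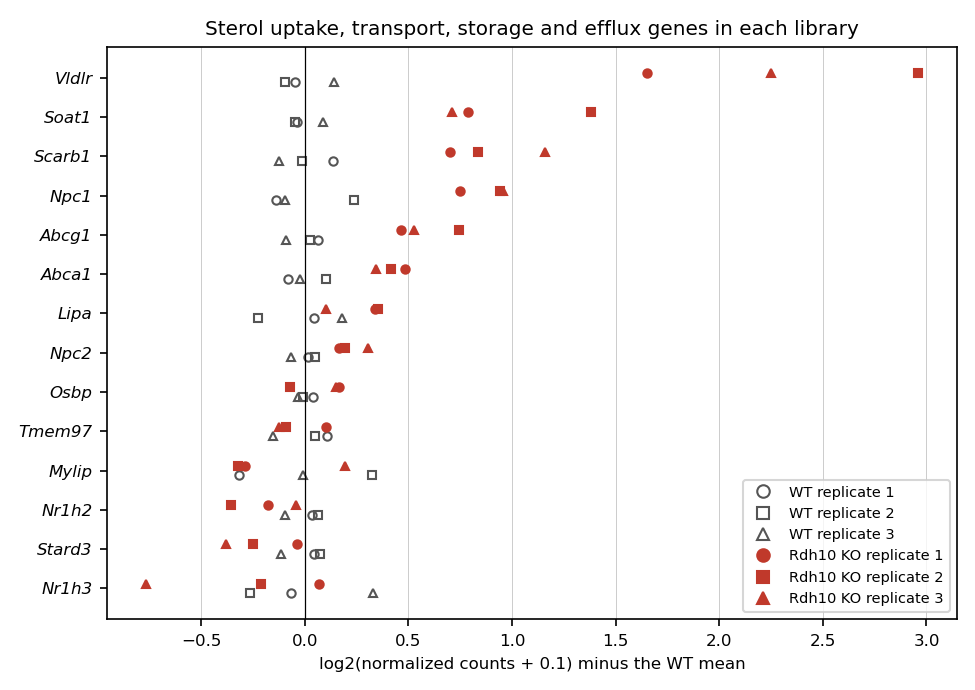
Level of 14 sterol uptake, transport, storage and efflux genes in each library, as log2(normalized counts + 0.1) minus the wild-type mean. Grey open symbols are wild-type and red filled symbols *Rdh10* KO libraries, with 1 shape per replicate number. For 7 genes, *Vldlr*, *Soat1*, *Scarb1*, *Npc1*, *Abcg1*, *Abca1* and *Npc2*, all red symbols lie to the right of all grey ones.

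Some endothelium markers were also higher in *Rdh10* KO. Of 5 markers, 3 were increased, against 10.3% of all genes and 18.5% of genes at least as abundant as the lowest of the 31 (*Kdr*, *Pecam1* and *Cdh5*; *Cdh5* was lost without any single library) and 0 decreased (limma; 0 also at an unadjusted p under 0.05 and with edgeR and DESeq2). The list, led by *Kdr*, summed to 2645, 2917 and 2496 normalized counts in wild-type and 3841, 3763 and 3819 in *Rdh10* KO, 142% of wild-type in the mean. None was at 0 in any library. Macrophage markers, led by *Csf1r*, summed to 280, 313 and 224 in wild-type and 258, 172 and 193 in *Rdh10* KO, with 0 of 5 past the test (limma, edgeR and DESeq2; 1 lower and 0 higher at an unadjusted p under 0.05, limma). The part of either cell type in the transport gene values was not tested.

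Other routes out of the mevalonate pathway, a list of 10 genes, had 2 decreased and 1 increased, which is near the background of 9.12% and 10.3% of all genes, or 19.5% and 18.5% of similarly abundant genes. *Pdss1*, which builds the isoprenoid tail of coenzyme Q, had 370, 397 and 401 normalized counts in wild-type and 228, 247 and 213 in *Rdh10* KO, and the groups lay far apart. Its log2 fold change was −0.76 (adjusted p = 0.000389, limma), below that of each of the 31 genes. *Fnta*, the shared subunit of the protein prenyltransferases, fell by 0.29 on the log2 scale (adjusted p = 0.0119, limma), and *Trit1*, which puts an isopentenyl group on tRNA, rose by 0.54 (adjusted p = 0.00237, limma). The calls of *Fnta* and *Trit1* were lost without wild-type replicate 1 and without wild-type replicate 2, while *Pdss1* passed in all. *Nus1* was the most abundant gene of the list and differed by 0.01 on the log2 scale.

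Among 19 further genes of fatty acid supply, elongation and activation, 1 was decreased and 1 increased, against 9.12% and 10.3% of all genes, and the median log2 fold change was −0.00. *Mlxipl*, the carbohydrate-responsive factor that acts beside SREBP1 on fatty acid genes, had a low level, 53.2, 39.0 and 47.0 normalized counts in wild-type and 20.8, 14.9 and 31.8 in *Rdh10* KO, with no overlap. Its log2 fold change was −1.10 (adjusted p = 0.0343, limma), a call lost without any single library other than *Rdh10* KO replicate 3. *Lpin1*, a phosphatidate phosphatase of triglyceride synthesis, had 115, 114 and 116 in wild-type and 195, 243 and 213 in *Rdh10* KO, a log2 difference of 0.92 (adjusted p = 0.000617, limma). *Tecr*, the most abundant gene of this list, had 0.04.

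The opposite process, mitochondrial fatty acid oxidation, had 5 of 13 genes decreased and 1 increased, against 9.12% and 10.3% of all genes or 19.5% and 18.5% of similarly abundant genes, with a median log2 fold change of −0.15. *Cpt1a*, which loads fatty acids on carnitine, had 144, 148 and 124 normalized counts in wild-type and 57.3, 90.7 and 97.7 in *Rdh10* KO, a log2 difference of −0.79 (adjusted p = 0.0163, limma). Its neural relative *Cpt1c* was higher, with 197, 183 and 203 in wild-type and 318, 374 and 532 in *Rdh10* KO, a log2 difference of 1.04 (adjusted p = 0.000585, limma). Both subunits of the electron transfer flavoprotein, *Etfa* and *Etfb*, fell, by 0.55 and 0.33 on the log2 scale, as did *Hadhb* by 0.53 and *Acadl* by 0.28. *Hadha*, the most abundant gene of this list and the partner of *Hadhb*, did not pass the test. The decreased genes numbered 1 without wild-type replicate 1, 0 without wild-type replicate 2, wild-type replicate 3 or *Rdh10* KO replicate 3, 3 without *Rdh10* KO replicate 1 and 2 without *Rdh10* KO replicate 2, with 0 also in limma without its trend, and at an unadjusted p under 0.05 between 5 and 7 in each of these fits. *Cpt1c* was lost without wild-type replicate 1, without wild-type replicate 2 and without the trend.

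Among called genes described here beyond the 31, limma without its intensity trend kept *Rdh10*, *Pdss1*, *Lpin1*, *Tfap2a*, *Kdr* and *Pecam1*, while for example *Mbtps2*, *Fnta*, *Trit1* and *Mlxipl* were lost. Pools of whole tissue with 3 libraries per genotype cannot place any of these differences in a cell type, and no protein, lipid or sterol was measured here.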

How the data were processed

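Total RNA of the 6 libraries was sequenced by the study after selection for poly(A), in directional libraries, 3 wild-type and 3 *Rdh10* KO, grouped by the genotype in the labels. The authors aligned reads to mm10 with TopHat and estimated transcript abundance by Expectation–Maximization, and they name FPKM as the normalization. The deposited signal was, however, whole reads divided by the median-of-ratios size factor of each library, since every value was within 0.1 of a whole read after this was undone, and it was treated as normalized counts. The annotation and counting tool are not stated. Replicates differed by more than the sampling noise of their reads (chi-square per degree of freedom 2.83 to 6.00 within wild-type, 13.5 to 19.0 within *Rdh10* KO). Such an excess is usual for separate pools of embryos, and whether depth or spread between pools set the precision was not tested.

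Limma 3.58.1 (lmFit, eBayes with trend) was fitted to log2(value + 0.1) of all genes with a mean above 0.5 in R 4.3.3, with Benjamini–Hochberg adjustment over 22921 genes and a threshold of 0.05. Fold changes are differences of group means. FPKM, positions and shared exon bases came from GENCODE mouse release 21 (GRCm38), in which 26296 of the 26437 genes were found by identifier. Named genes are the 31 genes, *Rdh10*, and the called and the most abundant genes of each list described; others are said to be chosen later. The members and lists were chosen with earlier results of these data known. Alternatives were pseudocounts of 1 and 0.01, a mean above 10 or no filter, quantile and median scaling, no trend, a block for the replicate number, the cut-off of 0.85, edgeR 4.0.16 (quasi-likelihood) and DESeq2 1.42.0 on recovered reads, and leaving out each library. The code was tested on simulated data. Tables, exact tests and plots used Python 3.11.15 with pandas 2.3.3, scipy 1.17.1 and matplotlib 3.10.9. The ChIP-seq of the study was not analysed here.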

Additional observations from a re-analysis of the deposited data

How the results depend on the processing

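The number of the 31 genes called decreased, 5 with all libraries and the settings of the report, was 3 with a pseudocount of 0.01, 0 in limma without its trend (2 at an unadjusted p under 0.05), 2 with a block for the replicate number, 0 with the cut-off of 0.85, and 1 to 6 with each library left out, while median scaling gave 7 and DESeq2 gave 4. The number increased, 0, was 1 with edgeR and 1 with DESeq2 (*Scd1* in both). Over all genes, 2091 decreased and 2360 increased became 197 and 448 without the trend, 203 and 552 with the cut-off, 427 to 1895 and 850 to 1983 with each library left out, and 1387 decreased with the block. Replicate numbers are not stated to pair samples, and the deviations of libraries with the same number from their group means correlated at −0.026, −0.035 and −0.074 across genes, given as a description. Median scaling moved the median of all genes by −0.08 and gave 64.0% decreased among called genes, against 47.0%. Leaving aside the cut-off of 0.85, which none of the 31 genes passed, *Mvk* passed in 15 of 16 alternatives, *Acat2* in 13, *Fdft1* in 9, *Sqle* in 8 and *Msmo1* in 6. Across 496 gene values under alternatives, 429 kept direction and side of the threshold and 32, of 12 genes, changed sign. Log2 fold changes of opposite sign were −0.0186 (*Tm7sf2*), 0.0627 (*Fasn*), 0.0125 (*Acly*) and −0.0035 (*Elovl6*) with quantile normalization, −0.0443 (*Tm7sf2*), −0.0454 (*Stard4*), −0.0093 (*Scd2*), −0.0683 (*Elovl6*) and −0.0251 (*Fads1*) with median scaling, and 0.0017 (*Sc5d*) and 0.0024 (*Fasn*) with edgeR. With each library left out, the log2 fold change ranged from −0.0331 to 0.18 for *Tm7sf2*, −0.16 to 0.0834 for *Hsd17b7*, −0.19 to 0.17 for *Sc5d*, −0.22 to 0.0190 for *Dhcr7*, −0.29 to 0.0136 for *Insig1*, −0.0791 to 0.0755 for *Srebf1*, −0.12 to 0.18 for *Stard4*, −0.0715 to 0.0498 for *Fasn*, −0.0794 to 0.16 for *Scd2*, −0.0646 to 0.14 for *Elovl6* and −0.0123 to 0.13 for *Fads1*. With each library left out, genes that kept their sign in these fits but moved by over 1.5 times ranged from −0.27 to −0.0284 (*Hmgcs1*), −0.15 to −0.0243 (*Pmvk*), −0.20 to −0.0678 (*Mvd*), −0.22 to −0.0390 (*Lss*), −0.23 to −0.0134 (*Ebp*), −0.36 to −0.12 (*Cyp51*), −0.0777 to −0.00785 (*Scap*), −0.10 to −0.00392 (*Acly*) and −0.13 to −0.0193 (*Fads2*). Further, *Msmo1* went from −0.47 to −0.23, *Sqle* from −0.33 to −0.20 and *Idi1* from −0.25 to −0.0949 without *Rdh10* KO replicate 3, and *Scd1* from 0.32 to 0.13 without *Rdh10* KO replicate 2. Median scaling lowered all 31 values, and by over 1.5 times it shrank *Srebf2* (0.22 to 0.13) and *Acaca* (0.23 to 0.14) and made more negative *Hmgcs1* (−0.25), *Pmvk* (−0.17), *Mvd* (−0.21), *Lss* (−0.19), *Nsdhl* (−0.25), *Hsd17b7* (−0.16), *Ebp* (−0.23), *Sc5d* (−0.12), *Dhcr7* (−0.18), *Insig1* (−0.21), *Srebf1* (−0.0998), *Scap* (−0.14), *Fasn* (−0.0877), *Acly* (−0.13) and *Fads2* (−0.14). The cause of these shifts was not tested. The lowest mean among the 31 genes was 303 normalized counts, and the part of depth in their precision was not tested.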
